A study of Caenorhabditis elegans with 18 samples.

Results

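Retained introns are introns that stay in a transcript while a second transcript of the same locus has them spliced out. All such introns listed in the embryo RNA of 6 Caenorhabditis elegans strains were collected, each as a pair of a retained and a spliced form, and matched between libraries by chromosome, coordinates, strand and the outer ends of the exons around them. This gave 37387 pairs in 18 libraries and 13320 retained introns at 13191 distinct positions, out of 31622 splicing events of all kinds. The retention share of an intron is the FPKM of the retained form divided by the summed FPKM of both forms, where FPKM is the fragment count scaled for transcript length and for library size. A share of 1 means that the whole listed signal was in the retained form, and a share of 0 that it was in the spliced form.

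An intron is removed after the spliceosome has recognised its 5′ and 3′ ends. The U2AF dimer binds the 3′ end, and its large subunit, encoded by uaf-1 in worms, contacts the pyrimidine-rich tract there. RBM-5 is an RNA-binding protein whose human counterpart RBM5 is a known splicing regulator. Worm introns are typically very short, and an intron left in a coding sequence either adds amino acids, when its length is a multiple of 3 and it holds no stop codon, or changes the reading frame. Transcripts with an early stop codon are commonly removed by nonsense-mediated decay.

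Wild type (N2, called WT in the sample names) was set beside 5 mutant strains. The single mutants were uaf-1(n4588) and, for rbm-5, the alleles n5119 and n5132. The doubles were uaf-1(n4588); rbm-5(n5119) and, with the other allele, uaf-1(n4588); rbm-5(n5132). Each had 3 libraries of total RNA from eggs, which were freed by bleaching from synchronized adults kept at 20 °C. The wild type strain carries none of the 3 alleles, and the labels do not state what each allele changes in its protein. The labels number the replicates but do not say whether they are separate cultures, so p-values measure only the spread between these libraries.

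Read depth is unknown because the lists hold FPKM values only, and no counting error can be given for a share. The replicate 1 libraries stood apart in all strains. Their summed FPKM of transcript starts was 1.25e+06 to 2.07e+06, and the 10 highest starts held 21.3–43.7% of it. The sums of the replicate 2 and 3 libraries were 803936 to 1.14e+06, with 7.57–11.8% in the 10 highest starts. Of the marker genes, 9 of 9 early embryonic and maternal genes had a median above 1 FPKM, and 7 of 8 genes of embryonic differentiation did, while no transcript start carried the name lin-26 alone. The summed FPKM of 4 yolk protein genes of the adult intestine was at most 3.88, that of the 2 sperm genes listed, of 5, at most 1.12, and that of the adult cuticle collagen col-19 at most 0.317. Total RNA of whole eggs cannot tell fewer cells of a type from less RNA per cell.

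Most retained introns were seen rarely. Of the 13320, 6950 (52.2%) were listed in 1 library, 6129 in 2 to 17 libraries and 241 (1.81%) in all 18. A library listed 1834 to 2401 of them. By strain the number was 2123 ± 170 in wild type, 2070 ± 218 in the n5119 single mutant, 2043 ± 60.8 in the n5132 single mutant, 2017 ± 77.3 in uaf-1(n4588), 2106 ± 284 in the n5119 double mutant and 2103 ± 21.9 in the n5132 double mutant (SD, n = 3 each). The strain means lay closer together than the libraries of the n5119 strains did. A library shared a median of 36.6% (29.3–40.9%) of its retained introns with another library of its strain and 34.4% (27.9–41.4%) with a library of another strain. The ranges of these shares overlapped almost wholly. An intron that a library does not list is one for which the assembly held no pair of transcripts, so absence from a list is not a measured share of 0.

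**Figure D1:**
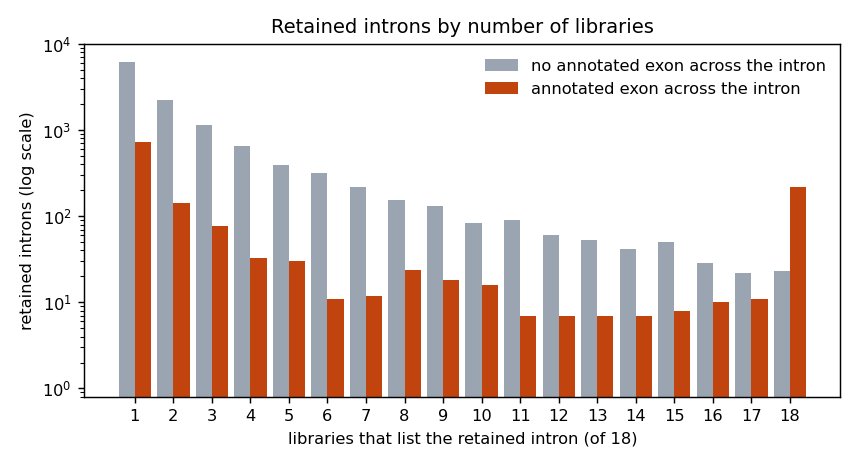
Number of retained introns (y axis, log scale) by how many of the 18 libraries list them (x axis), drawn separately for introns with and without an annotated exon that runs across them. Introns without such an exon fall steeply from 1 library onward, whereas those with it rise again at 18 libraries, where they are 218 of 241.

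The retained introns lay in 6519 annotated genes, of which 3209 held 1 and 441 held 5 or more. The gene F46H5.4 held the most, 14. Members are not independent, since 1764 (13.2%) overlapped another and 23.9–27.9% of the pairs in a library shared their locus and retained FPKM with another pair, as they belong to the same transcripts. The assembly was WBcel235. Of all members, 11862 (89.1%) were introns of Ensembl release 115 and 11452 (86.0%) lay between coding exons, 28 in 5′ UTRs and 19 in 3′ UTRs. An annotated exon ran across 1373 (10.3%). Of these, 403 are also annotated introns, so the annotation holds both forms. The other 970 are no annotated introns, so there the annotation lacks the spliced form. An annotated exon ran across 90.5% of the 241 introns listed in every library and 10.6% of those listed in 1 library. Both forms were annotated for 161 of the 241 (66.8%), and 57 (23.7%) had the exon only. In the other direction, 11753 of the 116404 annotated introns (10.1%) were listed as retained at least once.

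Retained introns were short. Their median length was 50 bases (quartiles 46 and 63), against 66 bases (48 and 343) over all annotated introns and 61 bases over those of the same genes. Introns under 60 bases made up 72.6% of the retained and 47.5% of all annotated introns, and introns over 200 bases 6.15% and 34.1%. The 241 introns listed in every library were longer, with a median of 66 bases, and 67.6% of them had a length that is a multiple of 3. That share was 33.0% over all annotated introns and 32.2% over the retained introns with no annotated exon across them. It was 50.8% over all 1373 retained introns with such an exon. Within the 241 it was 66.5% of the 218 with such an exon and 78.3% of the 23 without. First introns made up 1.01% of the members and last introns 0.480%, against 17.4% and 16.2% of annotated introns, and the definition of an event requires both outer exon ends to be the same in the 2 forms. The X chromosome held 22.4% of the members and 16.8% of annotated introns, and chromosome V 18.1% and 22.5%.

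**Figure D2:**
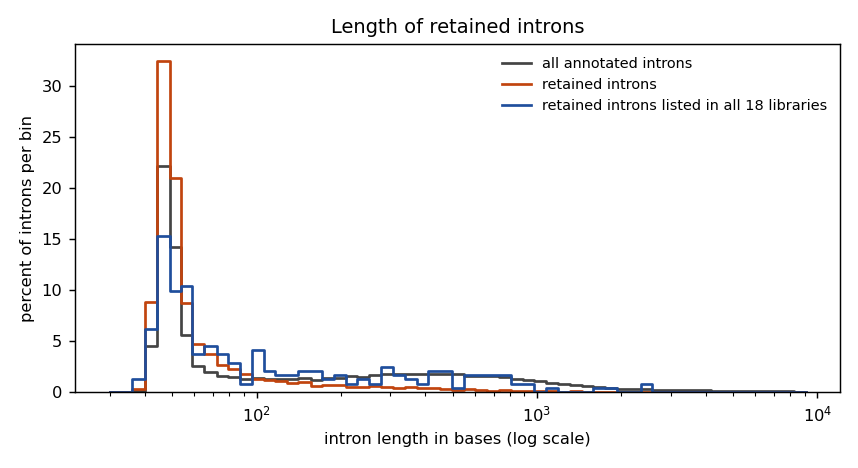
Length of introns (x axis, bases, log scale) as the percent of introns per bin (y axis) for all annotated introns, all retained introns and the retained introns listed in all 18 libraries. Retained introns concentrate under 60 bases, and the group listed in every library is spread over longer lengths.

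Over all pairs the retention share had a median of 0.391 (quartiles 0.241 and 0.621). It was exactly 1 in 14.0% of pairs and exactly 0 in 3.87%. Both forms were listed at 0 in 368 pairs, which have no share. A listed 0 can be a failed estimate, so shares of 0 and 1 mean that a form was listed at 0. The share was lower at loci of higher level: its median over introns in at least 3 libraries was 0.791 where both forms together had at most 1 FPKM and 0.318 where they had over 100 FPKM. Members that are not annotated introns had a median share of 0.656, against 0.359 for those that are.

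By library the median share was 0.343 to 0.470. Replicate 1 libraries ranged over all of that, 0.343–0.470, while replicate 2 ranged over 0.365–0.396 and replicate 3 over 0.368–0.406. Wild type averaged 0.394 ± 0.0435, the n5119 single mutant 0.407 ± 0.0425, the n5132 single mutant 0.361 ± 0.0160, uaf-1(n4588) 0.408 ± 0.0443, the n5119 double mutant 0.416 ± 0.0474 and the n5132 double mutant 0.384 ± 0.0116 (SD, n = 3 each). The 3 rbm-5(n5132) libraries, at 0.343 to 0.373, lay below all those of uaf-1(n4588), the lowest of which was 0.381, and below those of the n5119 double mutant. All other pairs of strains overlapped, and with 3 libraries against 3 no exact permutation test can reach 0.05.

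**Figure D3:**
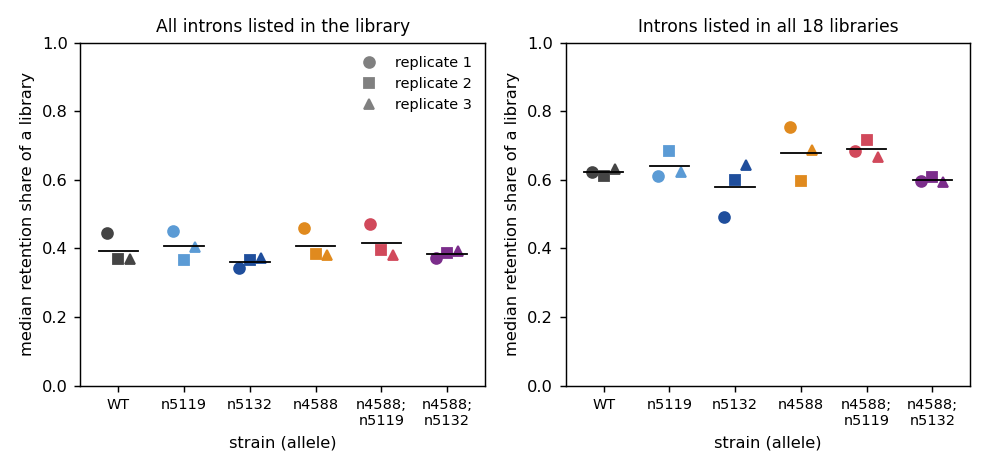
Median retention share of each library (y axis) by strain (x axis, allele names), over all introns the library lists and over the introns listed in all 18 libraries. Symbols give the replicate number and bars the mean of 3 libraries; in the left panel the libraries lie between 0.343 and 0.470, and the widest values are replicate 1.

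The 241 introns listed everywhere split into classes. A mean share could be given for 236, with a median of 0.610 and quartiles of 0.128 and 0.930. Of these, 27 had a share of 0 in every library with a share and 26 a share of 1. Another way to see the split is that 56 had a mean under 0.1 and 67 a mean over 0.9, whereas of 3723 introns listed in 3 to 17 libraries 23 and 211 did. An intron of rsp-6, an SR splicing factor gene (IV:7790397–7790837, 439 bases), had a share of 0 in all 18 libraries. An intron of smg-6, a nonsense-mediated decay gene (III:2476204–2476676, 471 bases), had a share of 1 in 16 libraries and 0.906 and 0.798 in wild type replicate 1 and rbm-5(n5119) replicate 2. Within a strain the SD of an intron's share had a median of 0.117, over 346 introns, and the range of the strain means a median of 0.193.

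The uaf-1(n4588) allele was tested over the 3 backgrounds together, in a contrast added after the single backgrounds had been seen, and then within each. The averaged contrast set the uaf-1 mutant and both double mutants against wild type and both rbm-5 single mutants. The test is a moderated linear model (limma) of log2 of the ratio of retained to spliced FPKM, with 1 FPKM added to each, so a log2 change below is a change in this ratio and shrinks toward 0 for low genes. Introns had to be listed in at least 2 libraries of every strain and average at least 1 FPKM. This left 339 of the 13320 introns and 2526 events of all kinds. At an adjusted p under 0.05 (Benjamini-Hochberg over all events), 16 introns were called (4.72% of 339), against 2.77% of all events and 2.47% of the events other than retained introns. Of the 16, 11 had a higher ratio of retained to spliced form with uaf-1(n4588), against 1.5% of all events with higher inclusion, and 5 a lower one, against 1.27%. In 3 of the 16 the retained form was listed at 0 throughout, so that the ratio does not measure retention there. Over all 339 introns the median log2 change was 0.01, and 51.3% were above 0. At an unadjusted p under 0.05 there were 45 introns (13.3%, against 12.2% of all events), 28 higher and 17 lower. Between the groups of 9 libraries the summed level of the embryonic differentiation genes ranged over 255–605 FPKM with uaf-1(n4588) and 439–714 without, and its part in these results was not tested.

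**Figure D4:**
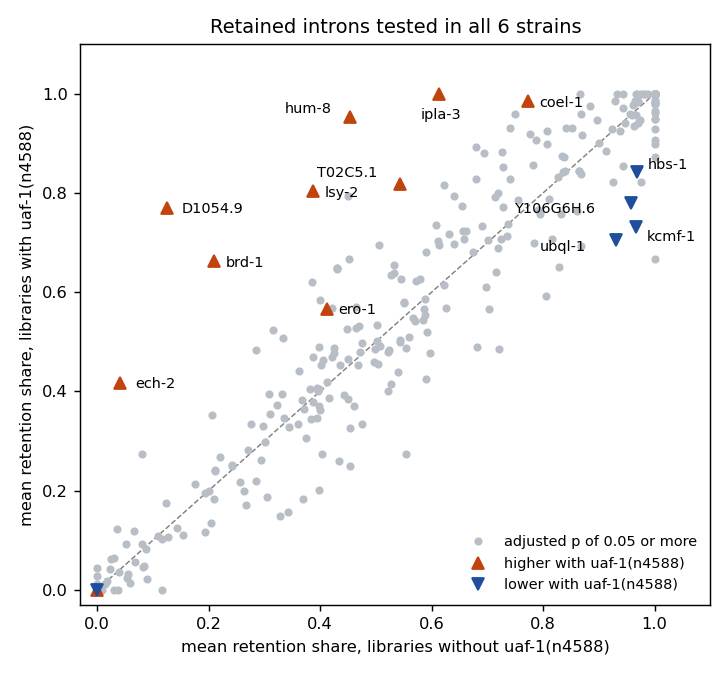
Mean retention share of the introns tested in all 6 strains, in the 9 libraries without uaf-1(n4588) (x axis) and the 9 with it (y axis). The dashed line marks equal shares; triangles are called introns, up for a higher and down for a lower ratio of retained to spliced form, and most other introns lie near the line.

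The intron of brd-1, which encodes the worm BARD1 protein, a partner of BRC-1 in DNA repair, lies on III:6887378–6887421 and is 42 bases long. Its retention share was 0.233 and 0.234 in the 2 wild type libraries that list it, 0.125 and 0.239 in rbm-5(n5119), and 0.226, 0.216 and 0.201 in rbm-5(n5132). With uaf-1(n4588) it was 0.678, 0.668 and 0.729 in the single mutant, 0.663, 0.612 and 0.385 in the double mutant with n5119, and 0.737, 0.662 and 0.822 in that with n5132. Every library with the allele was above every library without it. The averaged log2 change was 2.79 (SE 0.29, adjusted p = 0.000143, limma). The retained form had 6.78–10.4 FPKM without the allele and 13.8–36.7 FPKM with it, and the spliced form 27.4–47.5 and 7.49–22.1 FPKM.

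The 51-base intron of lsy-2, a C2H2 zinc finger gene known for left-right asymmetry of taste neurons (X:2091010–2091062), likewise separated the 2 sets of libraries. Its share was 0.557, 0.334 and 0.358 in wild type, 0.329, 0.384 and 0.370 in rbm-5(n5119) and 0.333, 0.400 and 0.427 in rbm-5(n5132). It was 0.776, 0.785 and 0.790 in uaf-1(n4588), 0.846, 1 and 0.788 in the double mutant with n5119 and 0.584, 0.823 and 0.837 in that with n5132. The lowest value with the allele, 0.584, was above the highest without it, 0.557, which is the wild type replicate 1 library. The log2 change was 3.07 (SE 0.58, adjusted p = 0.00707, limma).

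In ipla-3, a phospholipase A2 gene, the 55-base intron at V:20727305–20727361 had a share of 1 in each of the 7 libraries with uaf-1(n4588) that list it. In the 7 libraries without the allele that list it the share was 0.450 at the lowest, 0.640 at the median and 0.783 at the highest, so the groups did not overlap (log2 change 2.44, SE 0.33, adjusted p = 0.00211, limma). Its length is not a multiple of 3, unlike that of the other 10 introns with a higher ratio. The spliced form was at 0 FPKM in all 7 libraries and at 2.25–4.83 FPKM in the others.

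The largest change was in D1054.9 (V:10787206–10787288, 81 bases). The share was 0 in each wild type library, 0.161, 0.258 and 0.449 in rbm-5(n5119), and 0, 0.260 and 0 in rbm-5(n5132). It was 1 in each uaf-1(n4588) library, 0.348, 1 and 0.736 in the double mutant with n5119 and 0.702, 0.613 and 0.528 in that with n5132. The sets overlapped through the highest rbm-5(n5119) library and the lowest library of its double mutant, but wild type and uaf-1(n4588) were at opposite ends. The averaged log2 change was 5.12 (SE 0.62, adjusted p = 0.000218, limma). In wild type replicate 2 the same intron of D1054.9 was also listed with another outer exon end, with 4.50 FPKM in the retained form of 8.10 FPKM in all, so retention was not absent from wild type.

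The 42-base intron of coel-1, a gene related to tubulin folding cofactor E (X:4266950–4266993), was mostly retained in every strain. Its share was 0.681 at the lowest, 0.749 at the median and 0.894 at the highest in the libraries without the allele. It was 1 in 8 of the 9 libraries with the allele and 0.862 in the other. The overlap came from this library, replicate 2 of the double mutant with n5132 (log2 change 2.84, SE 0.36, adjusted p = 0.000277, limma). The spliced form, at 1.85–17.4 FPKM without the allele, was listed at 0 in those 8 libraries.

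Other introns rose with wider overlap. In T02C5.1 (X:2696304–2696356, 51 bases) the share was 0.420, 0.536 and 0.781 at the lowest, median and highest without the allele and 0.716, 0.786 and 1 with it (log2 change 1.70, adjusted p = 0.0150, limma). In ero-1, which encodes an endoplasmic reticulum oxidoreductase for disulfide bonds (I:14665298–14665404, 105 bases), the figures were 0.275, 0.423 and 0.493 against 0.454, 0.584 and 0.634 (log2 change 0.89, adjusted p = 0.0331). In hum-8, an unconventional myosin gene (IV:430608–430651, 42 bases), they were 0.142, 0.452 and 0.766 against 0.688, 1 and 1 at a mean of 2.19 FPKM over both forms (log2 change 1.60, adjusted p = 0.0120). In ech-2, an enoyl-CoA hydratase gene (IV:11856063–11856106, 42 bases), they were 0, 0 and 0.195 against 0, 0.471 and 0.585 (log2 change 2.88, adjusted p = 0.0381). The groups overlapped in each of these 4 introns. In ech-2 the lowest value with the allele was itself 0, and 2 of its 9 libraries had no share because both forms were listed at 0.

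**Figure D5:**
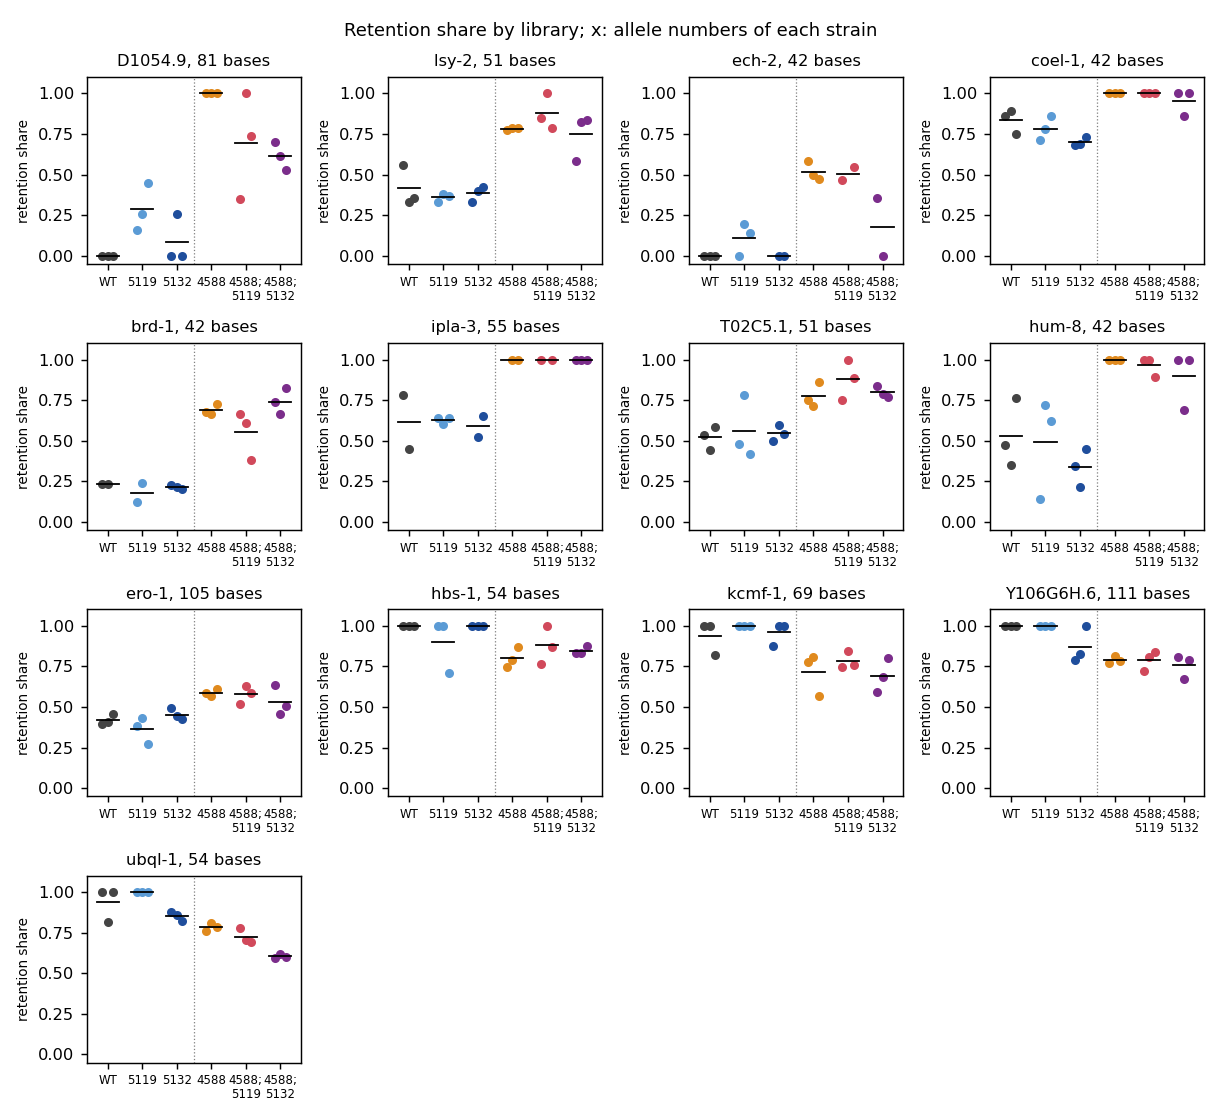
Retention share of each library (y axis, points) by strain (x axis, allele numbers) for the called introns whose share was above 0 in some library, with the mean of each strain as a bar. The dotted line divides strains without and with uaf-1(n4588); brd-1, lsy-2, ipla-3 and ubql-1 have no overlap across it.

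Retention fell at 4 introns whose share was near 1 without the allele. In ubql-1, the ubiquilin gene, whose protein carries ubiquitinated proteins to the proteasome (I:7022446–7022501, 54 bases), the share was 1, 0.813 and 1 in wild type, 1 in each rbm-5(n5119) library, and 0.878, 0.859 and 0.821 in rbm-5(n5132). It was 0.762, 0.807 and 0.782 in uaf-1(n4588), 0.777, 0.704 and 0.690 in the double mutant with n5119, and 0.595, 0.619 and 0.602 in that with n5132. The highest value with the allele was below the lowest without it, by a margin of 0.807 to 0.813, and the lowest strain was the double mutant with n5132. The log2 change was −3.92 (SE 0.56, adjusted p = 0.00105, limma). The spliced form had 28.4–88.9 FPKM with the allele, and was listed at 0 in 5 of the 9 libraries without it and at 20.8–35.2 FPKM in the other 4.

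In Y106G6H.6 (I:10445565–10445677, 111 bases) the share was 1 in each wild type and rbm-5(n5119) library and 0.787, 0.826 and 1 in rbm-5(n5132). With uaf-1(n4588) it was 0.671 at the lowest, 0.788 at the median and 0.838 at the highest. The overlap came from 2 rbm-5(n5132) libraries (log2 change −3.77, SE 0.56, adjusted p = 0.00130, limma). In kcmf-1, whose human counterpart is a ubiquitin ligase (III:7830458–7830528, 69 bases), the share was 0.819 at the lowest and 1 at the median without the allele and 0.568, 0.760 and 0.845 with it (log2 change −3.67, adjusted p = 0.00188). In hbs-1, related to the yeast ribosome rescue factor Hbs1 (I:8690576–8690631, 54 bases), it was 1 in 8 of 9 libraries without the allele and 0.708 in the other, and 0.748, 0.835 and 1 with it (log2 change −2.45, adjusted p = 0.0364). In all 4 introns the spliced form was listed at 0 in most libraries without the allele.

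For 3 called introns the retained form was at 0 in every library, so that the ratio followed the level of the spliced form only. In C53H9.2 (I:1833408–1833451, 42 bases) the spliced form had 26.6, 32.2 and 42.3 FPKM at the lowest, median and highest without the allele and 12.5, 17.2 and 22.5 FPKM with it (log2 change of the ratio 0.91, adjusted p = 0.00979, limma), and the share was 0 in every library. In jmjd-1.2, a histone demethylase gene (IV:4661395–4661453, 57 bases), it had 0, 7.03 and 17.1 FPKM without the allele and was listed at 0 in all 9 libraries with it. Both forms of jmjd-1.2 were thus at 0 with the allele, which leaves no share there, and the intron passed the filter on low values only through the other group, so its call (2.69, adjusted p = 0.00420) reads the level of the locus. In the second intron of kcmf-1 (III:7830793–7831228, 434 bases) it was listed at 0 in 7 of 9 libraries without the allele and at 9.21–28.0 FPKM with it (−3.31, adjusted p = 0.00175), so that 7 libraries without the allele have no share. The spliced forms of both kcmf-1 introns had the same FPKM in all but 1 library, so they are not separate observations.

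The 16 called introns are all annotated introns between coding exons. An annotated exon ran across 12 of them (75%), against 62.2% of the 339 tested. Their length was a multiple of 3 in 14 (87.5%), against 57.2% of those tested. The median length was 54 bases, against 56. A length of exactly 42 bases was found in 5 of the 16 (31.2%) and in 20 of the 339 (5.90%), and all 5 were among those with a higher ratio. The 16 still include the 3 introns whose retained form was listed at 0 throughout, and C53H9.2, with 42 bases, is among these. The properties were looked at after the calls were known and no test was made of them. The share of the libraries did not overlap between the 2 sets of 9 in 4 of the 16 and in 5 of the 339 (1.47%), against 0.95% of all events. Just inside the threshold was ech-2 (adjusted p = 0.0381), and just outside it attf-5 (X:792029–792087, adjusted p = 0.0569).

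The calls were fewer when fewer libraries entered. For these refits the share of all events called was not computed. With replicates 2 and 3 alone, 229 introns could be tested and 7 were called, of which 6 were among the 16: D1054.9, coel-1, Y106G6H.6, jmjd-1.2 and both of kcmf-1. In jmjd-1.2, the second kcmf-1 intron and C53H9.2 below, the retained form was listed at 0 throughout, so these values do not measure retention. Too few libraries then list brd-1 and ipla-3 for a test. In the 8 others the direction was kept, with log2 changes of 3.56 in lsy-2, 1.75 in T02C5.1, 2.98 in ech-2, 1.20 in hum-8, 0.88 in ero-1, 0.90 in C53H9.2, −3.59 in ubql-1 and −1.92 in hbs-1. Their adjusted p were 0.0571 to 0.360. Without rbm-5(n5119) replicate 3 and replicate 1 of its double mutant, libraries with many entries at 0, 15 of 289 introns were called and 13 of them were among the 16. When each library was left out in turn, 11 to 16 introns were called. The call was lost for hbs-1 in 16 of 18 such fits, for ech-2 in 14 and for ero-1 in 11, and for the other called introns in none of the fits that could be made. Without those 2 libraries ero-1 and ech-2 were no longer called (adjusted p = 0.0502 and 0.0745).

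In single backgrounds few introns passed. Against wild type, uaf-1(n4588) changed 2 of 606 introns, against 0.463% of all events. Both had a higher ratio, against 0.165% of all events higher and 0.298% lower. These were D1054.9, with a log2 change of 8.36 (SE 1.08, adjusted p = 0.00173, limma), and brd-1, with 2.71 (SE 0.52, adjusted p = 0.0467). The brd-1 call was lost in each of the 4 fits that left out a library and could be made. At an unadjusted p under 0.05 there were 38 introns (6.27%, against 7.11% of all events), 20 higher and 18 lower.

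In the rbm-5(n5119) background 4 of 584 introns passed, against 0.611% of all events. Of these, 1 was higher, against 0.272% of all events, and 3 were lower, against 0.339%. Retention fell in ubql-1 (log2 change −6.11, SE 0.97, adjusted p = 0.00669, limma), in Y106G6H.6 (−4.74, SE 0.97, adjusted p = 0.0451) and at a locus labelled with both atgl-1 and C05D11.8 (III:6424366–6424436, 69 bases, −4.41, SE 0.78, adjusted p = 0.0239). In the last the share was 1 in all 9 libraries without uaf-1(n4588), 0.713, 1 and 1 in the uaf-1(n4588) single mutant, and 0.598, 0.520 and 0.673 in the double mutant with n5119. It was 1 in the only library of the double mutant with n5132 that lists it, so the lower values were in the double mutant with n5119 and 1 library of the single mutant. Retention rose in coel-1 (2.93, SE 0.62, adjusted p = 0.0488). The call of coel-1 was lost in 6 of 6 fits that left out a library, and those of Y106G6H.6 and the atgl-1 locus in 5 of 6.

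In the rbm-5(n5132) background 1 of 587 introns passed, against 0.26% of all events. Of all events 0.0974% were higher and 0.162% lower. The intron was that of brd-1, higher by a log2 change of 3.23 (SE 0.47, adjusted p = 0.00653, limma). At an unadjusted p under 0.05 there were 47 introns (8.01%, against 8.09% of all events), 32 higher and 15 lower. The change of brd-1 was 2.71 in the wild type background, 2.42 in the n5119 background (adjusted p = 0.0742) and 3.23 in the n5132 background, and that of coel-1 was 2.76, 2.93 and 2.82. For D1054.9 it was 8.36, 2.66 and 4.34, and for ubql-1 −3.74, −6.11 and −1.90.

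Counting introns whose shares did not overlap between the listing libraries of each strain gave many more, because so few values separate easily. An intron could enter with fewer than 3 libraries in a strain, where values separate more easily still. Between uaf-1(n4588) and wild type they were 84 of 606 introns (13.9%), against 10.8% of all events. In the n5119 background they were 91 of 584 (15.6%), against 11% of all events, and in the n5132 background 117 of 587 (19.9%), against 12.8%. For the rbm-5 alleles against wild type they were 75 of 640 (11.7%) with n5119, against 8.1%, and 106 of 638 (16.6%) with n5132, against 9.88%. Against uaf-1(n4588) they were 95 of 649 (14.6%) in the n5119 double mutant, against 9.38%, and 103 of 641 (16.1%) in the n5132 double mutant, against 10.5%. The share of introns was above that of all events in each of the 7 comparisons, the rbm-5 ones with no call included. The number of libraries listing an event was not matched between introns and other events. For uaf-1(n4588) against wild type 606 introns and 2418 other events entered. Asking for all 6 strains left 339 introns and 2187 other events. Over the averaged rbm-5 contrast 0 of 339 introns separated, against 0.0792% of all events.

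Whether the effect of uaf-1(n4588) differed with rbm-5 was tested as an interaction averaged over both alleles. None of 339 introns passed (0% of all events did). An unadjusted p under 0.05 was found in 9 introns (2.655%, against 3.603% of all events), 4 higher and 5 lower. D1054.9 had the smallest p, with a log2 interaction of −4.86 (SE 1.32, adjusted p = 0.786, limma). For brd-1 the interaction was 0.12 (SE 0.63), for coel-1 0.12 (SE 0.76), for lsy-2 1.16 (SE 1.23) and for ubql-1 −0.26 (SE 1.19). Each of these 4 interactions was smaller than its standard error. The average can hide alleles that differ in opposite directions: the change of ubql-1 was larger in the n5119 background (−6.11) and smaller in the n5132 background (−1.90) than against wild type (−3.74), and an interaction for each allele was not tested. The next smallest p were in lin-41, a TRIM-NHL gene of developmental timing (−2.35), T21B10.3 (5.54), T16H12.3 (1.60) and the globin gene glb-16 (−1.70), each with an adjusted p of 0.991.

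Some introns entered the lists only with uaf-1(n4588). They could not be tested, because the other strains have no value for them. The listing counts here and below were not made over all splicing events, so whether they are particular to introns was not tested. A listing depends on what the assembly held, so the counts do not measure a change in retention. Listed in all 9 libraries with the allele and none of the 9 without it were 3 introns, and 0 showed the opposite pattern. The first is on Y46G5A.7 (II:12755683–12755948, 264 bases), which is no annotated intron but lies in an annotated exon, so here the spliced form is the one the annotation lacks. Its spliced form had 185, 26.1 and 70.8 FPKM in uaf-1(n4588), 62.8, 19.3 and 37.2 in the double mutant with n5119 and 73.6, 14.7 and 22.2 in that with n5132. The highest value of each strain was its replicate 1 library, and the share was 0.519 at the lowest, 0.829 at the median and 0.906 at the highest.

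The second is in glr-1, which encodes an AMPA-type glutamate receptor subunit (III:8585901–8585951, 49 bases). Its share was 0.548, 0.652 and 0.686 in uaf-1(n4588), 0.329, 0.449 and 0.461 in the double mutant with n5119 and 0.640, 0.482 and 0.833 in that with n5132, at 2.44–8.89 FPKM over both forms. The third is in ugt-5, a UDP-glucuronosyltransferase gene (V:12791178–12791229, 50 bases), with shares of 0.381, 0.304 and 0.314, then 0.391, 0.240 and 0.159, and then 0.340, 0.201 and 0.242 in the same order of strains. Its level was 9.85–25.1 FPKM over both forms. The spliced form was the larger in every library of ugt-5, and in 4 of 9 libraries of glr-1.

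Listed in at least 7 of the 9 libraries with the allele and in none without it were 12 introns, and 3 showed the reverse. The 12 include a 47-base intron of glr-4, another glutamate receptor gene (II:7787210–7787258, 7 libraries, shares 0.329–0.742), an 83-base intron of amph-1, the amphiphysin gene of membrane trafficking (IV:9645410–9645494, 7 libraries, 0.122–0.561), and a 50-base intron of the acyl-CoA oxidase gene acox-3 (IV:6246103–6246154, 7 libraries, 0.131–0.292). The 3 of the reverse pattern were in C07A9.5, T19D12.1 and T23C6.4, each in 7 libraries. These introns were singled out after their values were seen. Between uaf-1(n4588) and wild type alone, 63 introns were listed in all 3 libraries of the mutant and none of wild type, and 41 the other way round. In the n5119 background the numbers were 43 and 33, and in the n5132 background 50 and 49.

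The rbm-5 alleles on their own called no intron. A test with so few libraries misses many changes. In simulated data for uaf-1(n4588) against wild type, over events of all kinds, 16% of log2 changes of 2 and 38% of those of 3 were called. Introns alone and the rbm-5 contrasts were not simulated. For rbm-5(n5119) against wild type 0 of 640 passed (0% of all events). An unadjusted p under 0.05 was found in 21 introns (3.28%, against 5.42% of all events), 15 higher and 6 lower. The smallest p among them were in panl-2, which takes part in poly(A) shortening (III:6965861–6965918, log2 −2.58, adjusted p = 0.562), and in D1054.9 (3.39, adjusted p = 0.562, limma). In panl-2 the share was 0.696 and 0.814 in wild type and 0.281, 0.508 and 0.217 in rbm-5(n5119). The next were the nuclear hormone receptor gene nhr-204 (1.62, adjusted p = 0.683), nhl-1 (−1.78, adjusted p = 0.716) and cut-5 (1.87, adjusted p = 0.777). In cut-5 the share was 0 in each wild type library and 0, 0.124 and 0 in rbm-5(n5119). Where it was 0 the ratio follows the spliced form only. For rbm-5(n5132) 0 of 638 passed (0% of all events). Unadjusted p were under 0.05 in 23 introns (3.61%, against 4.75% of all events), 4 higher and 19 lower. The median log2 change over all tested introns was −0.16, and 41.2% were above 0, against 50.3% of all events. The smallest p were at ubql-1 (−3.07), clh-3, a chloride channel gene (1.53), aat-5, an amino acid transporter gene (−2.29), Y106G6H.6 (−2.86) and sams-3, an S-adenosylmethionine synthetase gene (−1.40), each with an adjusted p of 0.758. In sams-3 the share was 0 in both strains.

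In the uaf-1(n4588) background the rbm-5 alleles also called none. With n5119, 0 of 649 introns passed (0% of all events). Of these introns 23 had an unadjusted p under 0.05 (3.54%, against 4.37% of all events), 6 higher and 17 lower. The smallest p were at the atgl-1 locus (−3.02, adjusted p = 0.764), rskn-1 (−1.54), lin-41 (−2.06), spat-3 (−1.52) and pals-23 (−1.44), the last 4 with adjusted p of 0.815 to 0.878. With n5132, 0 of 641 passed, against 0.0307% of all events. Of these introns 34 had an unadjusted p under 0.05 (5.30%, against 5.34% of all events), 9 higher and 25 lower. Here the median log2 change was −0.13. The smallest p were at glb-16 (−2.93, adjusted p = 0.153), R06F6.8 (−2.04, adjusted p = 0.581), phf-31 (−2.04, adjusted p = 0.649), C16A11.3 (−2.49) and Y44E3A.1 (5.81), the last 2 with an adjusted p of 0.688. In Y44E3A.1 the share was 0 in every library with a share, so its change is not one of retention. Its spliced form had 621, 93.4 and 198 FPKM in uaf-1(n4588) and 65.5, 0 and 0 FPKM in the n5132 double mutant. The 2 comparisons use the same uaf-1(n4588) libraries, and the 2 above the same wild type libraries. Averaged over alleles and backgrounds, 0 of 339 introns passed, against 0.0396% of all events. Of the 339, 17 had an unadjusted p under 0.05 (5.01%, against 6.45% of all events), 6 higher and 11 lower. Their median log2 change over all 339 was −0.11. The smallest p of that contrast was in crml-1, the worm homologue of the actin regulator CARMIL (I:7153666–7153841, 174 bases, log2 −3.79, SE 1.05, adjusted p = 0.573, limma), where the share was 1 in all 6 libraries with intact rbm-5 and 0.542 to 1 in the others. Libraries at 1 occurred in both groups. The next were aat-5 (−1.49, adjusted p = 0.632), R06F6.8 (−1.06, adjusted p = 0.671), the cadherin gene cdh-8 (−3.50) and C25F9.14 (−1.46), the last 2 with an adjusted p of 0.757. No intron was listed in all 12 libraries with an rbm-5 allele and none of the other 6, and 0 showed the reverse. In at least 10 of the 12 and none of the 6 was a 101-base intron of unc-77, a cation channel gene (IV:6163682–6163784, shares 0.109–0.522), chosen after its values were seen.

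The introns of the genes under study were few. In uaf-1 itself a 75-base intron (III:1074362–1074438), which is no annotated intron but lies in an annotated exon, was listed in every library. Its share was 1 in 16 libraries, 0.687 in wild type replicate 1 and 0.867 in replicate 2 of the double mutant with n5119. In this listing the spliced form had a level in those 2 libraries only. With another outer exon end the same uaf-1 intron was listed in 4 libraries, wild type replicates 2 and 3 and 1 of each double mutant, with a share of 0 and 55.9–113 FPKM in the spliced form. A share of 1 in the first listing thus does not mean that the intron was unspliced. In rbm-5 an intron of 71 bases (I:6215987–6216059) and an intron with the same start that is 74 bases long were listed in the 3 rbm-5(n5132) libraries and 2 libraries of its double mutant and nowhere else. The share was 1 in all 5, so only the retained form carried a level there. Elsewhere in rbm-5, an 86-base intron (I:6216591–6216678) appeared in wild type replicates 1 and 3, with shares of 0.719 and 0.537, and, with another outer exon end, in rbm-5(n5119) replicate 2 with 0.534. Another rbm-5 intron, 43 bases long (I:6218309–6218353), appeared in uaf-1(n4588) replicate 1, with 0.312. In unc-93, a gene named in earlier work on uaf-1, a 63-base intron (III:3646752–3646816) was listed in 4 libraries, all with uaf-1(n4588). Its shares were 0.11 to 0.47, against no listing in the other 14. A 51-base intron of tos-1, a splicing target gene, was listed in 1 library.

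Retained introns were also grouped by gene lists. Of 16 introns in 7 genes for U2AF and 3′ splice site recognition, 8 were listed in 1 library. Splicing regulators had 24 introns in 15 genes and nonsense-mediated decay genes 14 introns in 4. Their median shares were 0.507, 0.498 and 0.447, against 0.381 over all members. Cytosolic ribosomal proteins had 6 introns in 6 genes, with a median share of 0.182 at a median of 1289 FPKM over both forms. Mitochondrial ribosomal proteins had 20 introns in 15 genes with 0.240, and cell division kinases and cyclins 19 introns in 14 genes with 0.247. Muscle filament genes had 24 introns in 11 genes with 0.551, and neuropeptide genes 6 introns in 4 genes with 0.587. Listed in 1 library only were 18 splicing regulator introns, 8 nonsense-mediated decay introns, 3 cytosolic ribosomal introns and 8 mitochondrial ribosomal introns. The same held for 8 kinase and cyclin introns, 15 muscle filament introns and 2 neuropeptide introns. Such introns enter the medians with 1 value each. In the averaged uaf-1(n4588) contrast at most 2 introns of a list could be tested, and none was called.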

How the data were processed

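The deposited lists give FPKM values per event, 1 list per library, per the file headers. Reads were mapped with TopHat2 2.0.12 and Bowtie2 to WBcel235, per the submitters' processing notes; the assembler and event caller are not given in the sources used here. Each retained intron row was paired with its spliced row. Chromosomes were named from the gene labels, and introns were set against Ensembl release 115. Models were fitted to log2((retained + 1)/(spliced + 1)) using limma 3.58.1 (R 4.3.3). A single fit held all 18 libraries and all event types, each strain with its own mean, and tests were two-sided. The Benjamini-Hochberg adjustment ran over all events of a contrast. Alternative exon ends were set against the rest of the start FPKM of their locus. The contrasts averaged over strains were added after the single contrasts had been seen. The code was tested on simulated data for 3024 events of all kinds, for uaf-1(n4588) against wild type, with 2 false calls. There, log2 changes of 1, 2, 3 and 4 were called in 2%, 16%, 38% and 60% of cases, so most smaller changes are missed. Named introns are all calls, the 5 smallest p where none was called, introns of the study genes, and examples of extreme shares and of listings in 1 group only. The introns and lists were chosen with earlier results of these data known. Tables and figures used Python 3.11.15, pandas 2.3.3 and matplotlib 3.10.9.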

Additional observations from a re-analysis of the deposited data

How the results depend on the processing

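Counts of called introns were recomputed under other settings, for introns only, so no share of all events called stands beside them. Against wild type, uaf-1(n4588) called 5 introns with a pseudocount of 0.1 and 5 with the share in place of the log ratio (2 as reported). In the n5119 background it called 2 with no minimum FPKM and 1 with replicates 2 and 3 only (4 as reported). In the n5132 background it called 2 with a pseudocount of 0.1, 5 with the share, 2 with replicates 2 and 3 only and 4 with its own strains only (1 as reported). With replicates 2 and 3 only, rbm-5(n5119) against wild type called 3 and each double mutant against uaf-1(n4588) 1 (0 as reported), and the averaged uaf-1(n4588) contrast 7 (16 as reported). The cause was not tested. Leaving out 1 library gave 1 to 2, 1 to 3 and 1 to 2 calls for uaf-1(n4588) in the 3 backgrounds, 0 to 1 and 0 to 2 for rbm-5(n5119) and rbm-5(n5132) against wild type, 0 to 1 for each double mutant against uaf-1(n4588), 11 to 16 for the averaged uaf-1(n4588) contrast, 0 to 1 for the averaged rbm-5 contrast and 0 to 0 for the interaction. With the replicate number as a block, the counts were 2 (1 shared with the reported calls), 4 (3 shared), 1, 0 in the rbm-5 contrasts and the interaction, and 18 (14 shared) for the averaged uaf-1(n4588) contrast. Under this block the calls of ero-1 (adjusted p = 0.0517) and ech-2 (0.0507) in the averaged contrast, of brd-1 against wild type (0.0932) and of coel-1 in the n5119 background (0.0877) were lost. The labels tie no number to a shared culture or day, and the deviations of same-numbered libraries correlated at −0.155 to 0.180, with a median of 0.0872 and 6 of 15 pairs over 0.1 among the replicate 1 libraries. Of the settings of single introns, 397 kept direction and call, 93 lost the call and 0 reversed. The median share of the introns listed everywhere was 0.606 to 0.640 without 1 library, 0.634 with a mean of at least 5 FPKM and 0.612 from mean FPKM. Leaving out the 2 libraries with many zeros was chosen after seeing the data. Unknown depth limits every share of a locus with few FPKM.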

Other observations

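Fitting the retention share itself in place of the log ratio called 15 introns for the averaged uaf-1(n4588) contrast, 12 of them among the 16 above. The 3 others were chosen after their values were seen, and the share of all events called in this fit was not computed. In nprl-2, a subunit gene of the GATOR1 complex that restrains TORC1 (IV:7558322–7558377, 54 bases), the share was 0.480, 0.554 and 0.656 at the lowest, median and highest in the 9 libraries without the allele, and 0, 0.301 and 0.368 in the 7 libraries with it that have a share. The groups did not overlap, and the fitted change in share was −0.270 (SE 0.0472, adjusted p = 0.00909, limma). In C16A11.4 (II:4227853–4227905, 51 bases) the share was 0.632, 0.697 and 0.796 without the allele and 0.469, 0.597 and 0.693 with it (−0.138, adjusted p = 0.0151). In attf-5, an AT-hook gene (X:792029–792087, 57 bases), it was 0.332, 0.385 and 0.610 in the 8 libraries without the allele that list it and 0.576, 0.609 and 0.800 with it (0.208, adjusted p = 0.0242). On the log ratio scale their adjusted p were 0.146, 0.0684 and 0.0569.

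Some introns listed in every library sat near the ends of the scale with single libraries apart. In mlt-11 (V:20673287–20674431, 1143 bases) the share was 0 in 14 of 18 libraries. In attf-4 (III:6082970–6083178, 207 bases) it was 1 in 15 of 18 libraries and 0.607 and 0.592 in wild type replicates 2 and 3 and 0.603 in rbm-5(n5132) replicate 2.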
